A study of Rattus norvegicus with 23 samples.

Results

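Of the 29170 probe sets on the array, 37 read a subunit of RNA polymerase II (Pol II) or of Mediator, 11 for Pol II and 26 for Mediator, with 1 probe set for each gene. The array annotation gave 36 of them by a single gene symbol (Polr2 followed by a letter, Med followed by a number, Ccnc, Cdk8 or Cdk19). The remaining probe set, 10744182, was added under the name Polr2a from the paper's table of genes that were lower in combination than in control hearts. The combination and the control hearts were thus part of how Polr2a was chosen. Its differences that involve either group are given as a description with no p-value. Polr2a is left out of the counts of genes past the threshold in the combination hearts, except where it is said to be added. Polr2k, Polr2l, Med7, Med9, Med12, Med13l, Med18, Med25 and Med26 had no probe set named by 1 symbol and were not analysed here.

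The RNA came from 23 whole hearts of newborn Sprague Dawley rats (postnatal day 1), males and females together, 1 heart to each Affymetrix Rat Gene 1.0 ST array. The 7 control hearts came from dams fed control diet and injected with citrate buffer on gestational day 14. The 6 diabetes hearts came from dams on control diet that were given 65 mg/kg streptozotocin that day, which destroys the beta cells that make insulin, and the 5 HF diet hearts from buffer-injected dams that had eaten a high-fat diet before mating (28 days or more) and through pregnancy. The 5 combination hearts had both exposures. Diabetic dams received insulin that lowered their glucose only in part, so the pups were exposed through the mother and were not treated themselves. The labels carry 19 code stems for the 23 hearts, with 3 for the HF diet and 3 for the combination group. Whether a stem marks a litter is not stated, and the p-values take the hearts as separate although some could share a dam.

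Pol II is the enzyme that transcribes the protein-coding genes. Its largest subunit, Polr2a, holds most of the active site and carries the long repetitive tail that is phosphorylated as transcription proceeds, while several of the small subunits are shared with the polymerases that make ribosomal and transfer RNA. Mediator is the large complex that carries signals from DNA-bound activators to Pol II: a head and a middle module touch the polymerase, a tail module receives the activators, and a kinase module docks reversibly and keeps the polymerase away while it is bound. In mice, loss of Med1 from cardiac muscle leads to cardiomyopathy, and the kinase module subunit Med13 in the heart affects energy use of the whole body.

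The deposited values are on a log2 scale and centred so that each probe set has a median of 0 across the 23 hearts, so a value is a distance from that median and the level of a subunit cannot be read. The medians of the arrays lay between -0.015 and 0.019, and their SDs between 0.16 and 0.393, with combination heart 1 the widest. Differences came from 1 limma fit to all hearts, and a gene was counted as past the threshold of the study's methods when its difference exceeded 0.322 on the log2 scale either way and its unadjusted p was under 0.05. In no comparison did any member, or any of the 29170 probe sets, reach a Benjamini-Hochberg adjusted p under 0.05 in limma. The comparisons of the combination group share its 5 hearts and those with controls share the 7 control hearts, so they are not independent of each other. In whole-heart RNA, fewer cells of a type and less RNA per cell cannot be told apart.

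The promoters of 32 of the 37 genes were in the RefSeq table of assembly GRCr8, which gives 250 bases before to 50 bases after each start. The promoters of 4 genes that the results turn on follow, 5′ to 3′, with each match of a searched motif in capitals: Polr2a and Polr2h, Pol II subunits that differed in opposite directions in combination hearts, and Med10 and Med28, Mediator subunits past the threshold. They lie at chr10:54977130-54977429, chr11:93700822-93701121, chr1:35304105-35304404 and chr14:69816066-69816365, all on the minus strand.
Polr2a: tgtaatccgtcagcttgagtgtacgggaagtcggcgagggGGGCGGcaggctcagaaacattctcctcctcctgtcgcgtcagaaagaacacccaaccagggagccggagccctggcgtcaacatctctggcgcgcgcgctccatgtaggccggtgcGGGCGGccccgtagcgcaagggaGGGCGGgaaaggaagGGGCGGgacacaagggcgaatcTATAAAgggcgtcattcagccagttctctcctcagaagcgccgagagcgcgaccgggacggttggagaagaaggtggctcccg
Polr2h: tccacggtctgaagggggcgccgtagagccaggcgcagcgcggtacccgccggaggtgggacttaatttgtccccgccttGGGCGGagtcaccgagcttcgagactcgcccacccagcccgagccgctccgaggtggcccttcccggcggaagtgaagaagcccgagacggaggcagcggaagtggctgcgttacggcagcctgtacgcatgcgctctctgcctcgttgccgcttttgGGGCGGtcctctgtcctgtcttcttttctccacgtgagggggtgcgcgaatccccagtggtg
Med10: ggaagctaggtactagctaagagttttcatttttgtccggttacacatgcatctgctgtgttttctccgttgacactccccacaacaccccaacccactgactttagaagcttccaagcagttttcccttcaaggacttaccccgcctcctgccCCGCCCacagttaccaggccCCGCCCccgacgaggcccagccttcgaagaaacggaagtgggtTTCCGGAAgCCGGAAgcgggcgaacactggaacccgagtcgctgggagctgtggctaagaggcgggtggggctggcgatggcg
Med28: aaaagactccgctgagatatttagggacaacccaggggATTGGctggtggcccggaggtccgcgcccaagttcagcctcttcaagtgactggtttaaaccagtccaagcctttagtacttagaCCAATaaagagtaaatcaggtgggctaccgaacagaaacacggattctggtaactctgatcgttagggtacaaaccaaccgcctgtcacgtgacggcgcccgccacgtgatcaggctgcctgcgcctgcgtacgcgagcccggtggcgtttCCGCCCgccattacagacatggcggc
The capitals mark the GC box (GGGCGG) in all 4, a TATA box (TATAAA) in Polr2a, the ETS core (CCGGAA) in Med10 and the CCAAT box (CCAAT) in Med28, each read on both strands. In Med10, matches of the ETS core on the 2 strands overlap. Among the 32 promoters, 26 (81.2%) held a GC box against 33.1% of all 33469 promoters in the table, and 15 (46.9%) held an ETS core against 15% of all. A CCAAT box was found in 13 (40.6%, against 37.5%), a TATA box in 2 (6.25%, against 14.2%), namely Polr2a and Med16, and the start motif of YY1 (AAGATGGC) in 1, Med24 (3.12%, against 3.17%). These are matches of letters, not sites shown to be bound. The GC box stood in promoters of genes with lower and with higher values in combination hearts, Polr2a and Med13 among the first and Polr2h and Med10 among the second.

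Of the 37 differences between combination and control hearts, 26 were positive and 11 negative, with a median of 0.11 on the log2 scale beside 0.00183 over all probe sets, of which 50.6% were positive. The negative ones were Polr2a, Polr2b, Med1, Med14, 3 of the 4 tail genes and 4 of the 5 genes of the kinase module. Med24 of the tail and Ccnc of the kinase module were positive, as were the rest of Pol II, the head, Med27 to Med30 and the middle other than Med1. Whether the parts of the complexes differed from each other was not tested. Of the 36 genes other than Polr2a, 1 was past the threshold, Med10 (higher), beside 3.31% of all probe sets (2.1% higher and 1.2% lower). At an unadjusted p under 0.05 alone there were 7, with Polr2c, Polr2f, Polr2h, Med10 and Med20 higher and Med14 and Med16 lower, beside 9.9% of all probe sets (5.97% higher and 3.94% lower).

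**Figure D1:**
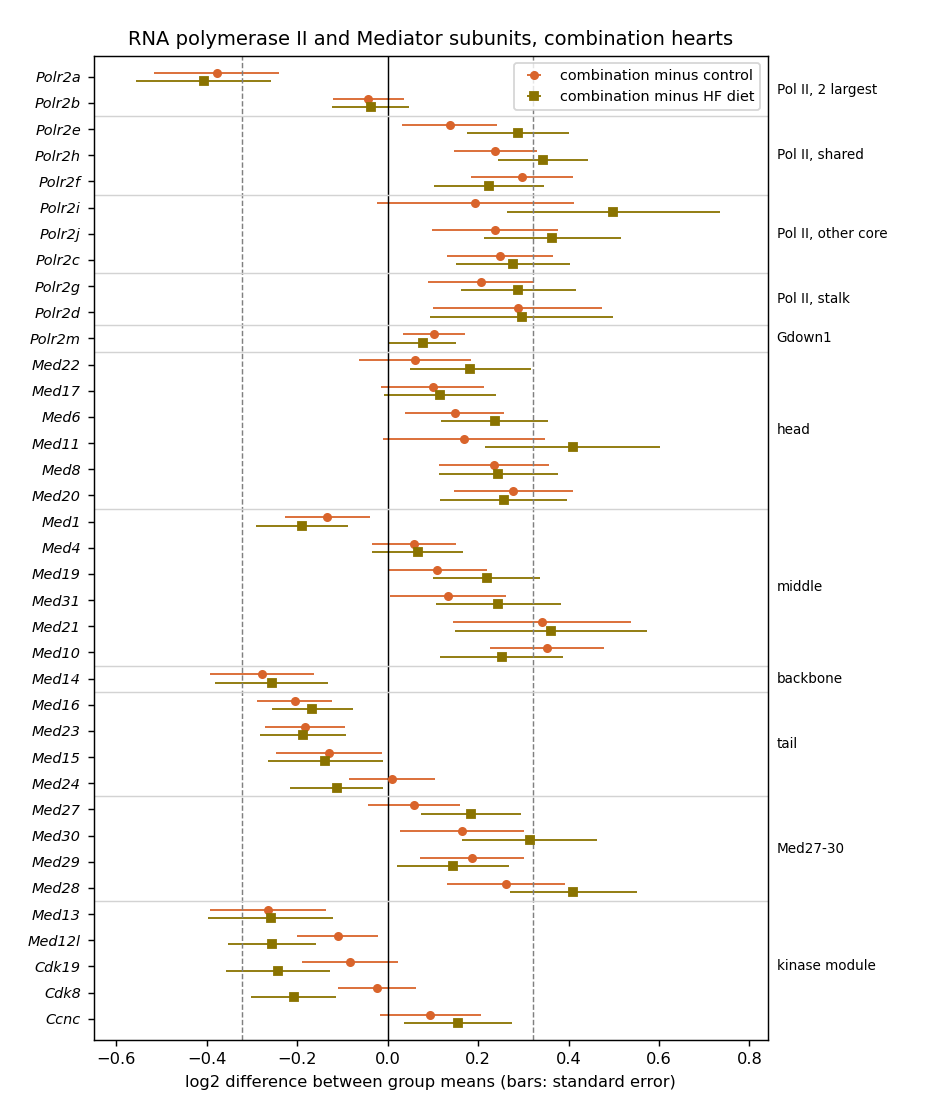
Log2 difference between group means for the 37 subunit genes, combination minus control (circles) and combination minus HF diet (squares), with standard errors from limma as bars and dashed lines at the threshold of 0.322. Polr2a stands at -0.38 and -0.41, while 9 of the 10 other Pol II subunits lie above 0 in both comparisons, and 8 and 9 of the 10 genes of the tail, backbone and kinase module lie below 0.

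Polr2a had its lowest values in the combination hearts. These stood at -0.82, -0.27, -0.43, -0.093 and -0.11 in combination hearts 1 to 5, and at 0.205, -0.17, 0.33, -0.26 and 0.20 in HF diet hearts 1 to 5. Control hearts ran from -0.23 through a median of 0 to 0.31, and diabetes hearts from -0.365 through 0.0125 to 0.25. All 5 combination hearts were below 0, but only hearts 1, 2 and 3 were below every control heart, and the groups overlapped. The mean was -0.345 ± 0.301 (SD, n = 5) in combination hearts and 0.0327 ± 0.221 (SD, n = 7) in controls, a difference of -0.38 (SE 0.138), or 1.30-fold lower. Against diabetes hearts the difference was -0.37 (SE 0.143) and against HF diet hearts -0.41 (SE 0.149). Polr2a in diabetes and HF diet hearts lay close to control, with differences of -0.0105 (SE 0.131) and 0.0287 (SE 0.138). Without combination heart 1 the difference from control was -0.258.

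**Figure D2:**
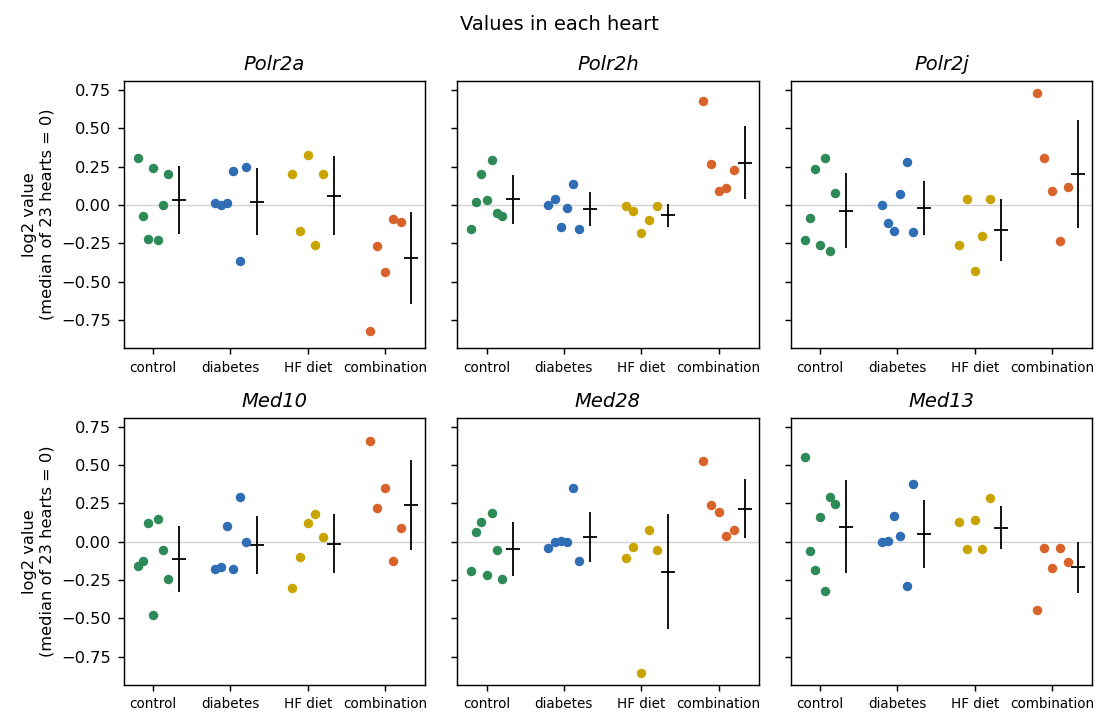
Log2 value of 6 subunit genes in each of the 23 hearts by group, with the group mean as a tick and the SD as a bar beside the points. All 5 combination hearts lie below 0 for Polr2a and Med13 and above 0 for Polr2h and Med28, and in Polr2h none of them overlaps the HF diet hearts.

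Polr2b, the second largest subunit, which closes the active site together with Polr2a, did not share its pattern. Its combination hearts stood at -0.055, 0.13, -0.079, 0.025 and 0.06, inside the control range of -0.13 to 0.22. The difference from control was -0.0425 (SE 0.0787, adjusted p = 0.857) and from HF diet -0.0374 (SE 0.085, adjusted p = 0.864), with limma. Polr2b thus differed by less than the spread between hearts.

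Of the subunits that Pol II shares with the other nuclear polymerases, Polr2e, Polr2f and Polr2h were measured, and all 3 had positive differences in combination hearts. Polr2h (probe set 10755309) stood at 0.68, 0.27, 0.09, 0.11 and 0.23 in combination hearts 1 to 5 and at -0.009, -0.041, -0.18, -0.096 and -0.008 in HF diet hearts 1 to 5. Control hearts ran from -0.16 through 0.017 to 0.295 and diabetes hearts from -0.16 through -0.0095 to 0.14. Every combination heart was above every HF diet heart, which held for 0.682% of all probe sets (1.64% had no overlap in either direction). No other member was free of overlap between any 2 groups, beside 0.024% to 0.387% of all probe sets, in either direction, in the other 5 pairs. The combination hearts overlapped the control and the diabetes hearts. Polr2h was 0.34 higher than in HF diet hearts (SE 0.0994, 1.27-fold, adjusted p = 0.368 with limma), the lowest p among the members in that comparison, and past the threshold. It was 0.30 higher than in diabetes hearts (SE 0.0952, adjusted p = 0.528 with limma) and 0.24 higher than in controls (SE 0.092, adjusted p = 0.495 with limma), both under the fold threshold and with an unadjusted p under 0.05. Leaving out combination heart 1 or HF diet heart 3 brought the difference from HF diet hearts to 0.243 or 0.315, under the fold threshold, while the unadjusted p stayed under 0.05. With the hearts of a code stem averaged it was 0.294. Without combination heart 1 the difference from control was 0.137.

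Polr2f, another shared subunit, stood at 0.79 in combination heart 1 and between 0 and 0.22 in the other 4. It was 0.30 higher than in controls (SE 0.113, adjusted p = 0.495 with limma), short of the fold threshold. Polr2e, which forms part of the jaw that grips the DNA, was between 0.018 and 0.14 in 4 combination hearts and 0.56 in heart 1. Its difference was 0.14 from controls (SE 0.104, adjusted p = 0.633) and 0.29 from HF diet hearts (SE 0.113, adjusted p = 0.368), with limma. In both genes the other 4 combination hearts lay inside the control range, and without heart 1 the differences from control were 0.163 for Polr2f and 0.0409 for Polr2e.

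Polr2c, Polr2j and Polr2i are core subunits that only Pol II has, and Polr2c and Polr2j pair with each other at an early step of assembly. Polr2j (probe set 10761070) stood at 0.73, 0.31, 0.089, -0.23 and 0.12 in combination hearts 1 to 5 and at -0.26, 0.039, -0.43, -0.20 and 0.041 in HF diet hearts. The groups overlapped through combination heart 4, and Polr2j was 0.36 higher than in HF diet hearts (SE 0.151, adjusted p = 0.368 with limma), past the threshold. Its partner Polr2c stood at 0.68, 0.29, 0.22, 0.023 and 0.055 in the combination hearts and was 0.25 higher than in controls (SE 0.117, adjusted p = 0.501 with limma), or 0.142 without combination heart 1. Neither passed the threshold against control, where Polr2j differed by 0.24 (SE 0.14, adjusted p = 0.545, limma). Polr2i (probe set 10720605), which is known for its part in the fidelity of transcription, was past the threshold against HF diet hearts at 0.50 (SE 0.235, adjusted p = 0.372 with limma). That value rested on HF diet heart 3, at -1.49 beside -0.29, -0.004, 0 and 0.33 in the other 4, and without it the difference was 0.199 (adjusted p = 0.679 with limma), under the threshold. The combination hearts for Polr2i stood at 0.54, 0.20, 0.195, -0.01 and 0.11.

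Polr2d and Polr2g form the stalk that projects from the core near the exit of the RNA. Both had positive differences from control, 0.29 for Polr2d (SE 0.187, adjusted p = 0.579) and 0.21 for Polr2g (SE 0.117, adjusted p = 0.533), with limma. Neither passed the threshold in any comparison, and the combination hearts of Polr2d, from -0.16 to 1.16, overlapped control hearts from -0.39 to 0.56. Without combination heart 1 the differences were 0.0807 for Polr2d and 0.0877 for Polr2g. Polr2m, or Gdown1, binds Pol II and holds back initiation until Mediator relieves it. It had the smallest positive difference in Pol II, 0.10 (SE 0.0686, adjusted p = 0.586, limma) against control and combination hearts between 0 and 0.23. Taking Pol II without Polr2a, the median over 10 genes in each combination heart was 0.678, 0.245, 0.0795, 0.0055 and 0.115, and 9, 10, 7, 5 and 9 of the 10 genes were above 0. The same median ran from -0.187 to 0.302 in control hearts, so only combination heart 1 was outside them.

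In Mediator's head, which contacts Pol II and the general initiation factors, all 6 measured genes had positive differences from control, from 0.0601 for Med22 to 0.28 for Med20, with a median of 0.158. Med20 was the only one of them with an unadjusted p under 0.05 against control (SE 0.131, adjusted p = 0.501 with limma). Its combination hearts ranged from -0.22 in heart 4 to 0.90 in heart 1 and overlapped control hearts from -0.42 to 0.26, and without heart 1 the difference was 0.112. Med17, the scaffold of the head, differed by 0.0998 (SE 0.114, adjusted p = 0.753, limma). Med11 (probe set 10735217) was past the threshold against HF diet hearts at 0.41 (SE 0.194, adjusted p = 0.373 with limma), with 0.69, 0.099, -0.14, 0 and 0.27 in combination hearts and -0.31, 0.086, -0.92, -0.16 and 0.18 in HF diet hearts. The 2 groups overlapped widely, and without HF diet heart 3 the difference was 0.236 (adjusted p = 0.644 with limma), under the threshold. The direction of Med22 against control changed under quantile normalization, to -0.0178.

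In the middle module, 5 of 6 genes had positive differences from control. Med10 (probe set 10796853), a small subunit of the module, stood at 0.66, 0.22, 0.35, -0.13 and 0.091 in combination hearts 1 to 5, while control hearts ran from -0.48 through -0.13 to 0.15. Hearts 1, 2 and 3 were above every control heart and heart 4 was at the control median. Med10 was 0.35 higher than in controls (SE 0.126, 1.28-fold, adjusted p = 0.495 with limma), the only annotated member past the threshold in that comparison. Against HF diet hearts, at -0.30, -0.097, 0.12, 0.18 and 0.033, it was 0.25 higher (SE 0.136, adjusted p = 0.408, limma). Without combination heart 1 the difference from control was 0.247 and without control heart 4 it was 0.291, both under the threshold. Quantile normalization (0.291), array weights (0.284) and adjustment for the erythroid markers (0.253) also took it under the threshold. Med21, which pairs with Med7 in the hinge of the module, had nearly the same difference from control, 0.34, with an SE of 0.197 (adjusted p = 0.54, limma), since its combination hearts were spread from -0.315 in heart 4 to 1.38 in heart 1. Med1, the subunit through which nuclear receptors reach Mediator, was the exception in the module at -0.13 (SE 0.0941, adjusted p = 0.603, limma), with combination heart 1 at -0.68 and the others between -0.071 and 0.063.

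Med14, the backbone that joins head, middle and tail, was 0.28 lower in combination than in control hearts on the log2 scale, with an SE of 0.115 (adjusted p = 0.495 with limma), short of the fold threshold. Its combination hearts stood at -0.57, -0.15, -0.265, -0.027 and 0.032 and its control hearts ran from -0.37 through 0.105 to 0.31. Control heart 6 was the low one and lay below all combination hearts but heart 1. In the tail, Med16, Med23 and Med15 had differences from control of -0.21 (SE 0.0827, adjusted p = 0.495), -0.18 (SE 0.0885, adjusted p = 0.502) and -0.13 (SE 0.117, adjusted p = 0.684), with limma. Without combination heart 1 that of Med16 was -0.125. Med15 and Med23 are the landing places of activators such as those of lipid synthesis and growth factor response. Med24 was at 0.0098 (SE 0.0958, adjusted p = 0.976, limma) against control and at -0.11 (SE 0.103, adjusted p = 0.623, limma) against HF diet hearts. None of the 5 passed the threshold in any comparison.

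Med27, Med28, Med29 and Med30 are subunits of animal Mediator that sit where the head meets the tail. All 4 had positive differences from control, with a median of 0.176, and from HF diet hearts, with a median of 0.249. Med28 (probe set 10777204) stood at 0.53, 0.24, 0.19, 0.04 and 0.077 in combination hearts 1 to 5 and at -0.11, -0.032, -0.85, 0.075 and -0.057 in HF diet hearts 1 to 5. All combination hearts were above 0, and the groups overlapped only where HF diet heart 4 exceeded combination heart 4. Med28 was 0.41 higher than in HF diet hearts (SE 0.141, 1.33-fold, adjusted p = 0.368 with limma), past the threshold, and without HF diet heart 3 the difference was 0.246 (adjusted p = 0.571 with limma), under it. Against control it was 0.26 higher (SE 0.131, adjusted p = 0.505, limma). Med30 differed by 0.31 from HF diet hearts (SE 0.148, adjusted p = 0.373 with limma), just under the fold threshold.

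The kinase module holds a cyclin-dependent kinase (Cdk8 or its close relative Cdk19), cyclin C (Ccnc), Med12 or Med12l and Med13 or Med13l. Of the 5 genes measured, 4 had negative differences from control and none passed the threshold. Med13, which ties the module to the rest of Mediator, stood at -0.44, -0.041, -0.17, -0.039 and -0.135 in combination hearts 1 to 5 and at 0.13, -0.046, 0.14, -0.049 and 0.28 in HF diet hearts 1 to 5. Control hearts ran from -0.32 through 0.16 to 0.55. All combination hearts were below 0 but only heart 1 was below every control heart, and the difference was -0.26 from both control (SE 0.128, adjusted p = 0.502) and HF diet hearts (SE 0.138, adjusted p = 0.405), with limma. Med12l stood at -0.37, -0.074, -0.10, 0.006 and -0.175 and was 0.26 lower on the log2 scale than in HF diet hearts (SE 0.097, adjusted p = 0.368 with limma). The 2 kinases differed from HF diet hearts by -0.21 for Cdk8 (SE 0.0937, adjusted p = 0.37) and -0.24 for Cdk19 (SE 0.115, adjusted p = 0.373), with limma. Their cyclin Ccnc went the other way without passing a test, at 0.16 (SE 0.12, adjusted p = 0.55, limma), with combination heart 1 at 0.66 and the others between -0.14 and 0.088. Against control Cdk8 and Cdk19 differed by -0.0235 (adjusted p = 0.934) and -0.0829 (adjusted p = 0.784), with limma, and the sign of Cdk8 changed under quantile normalization, to 0.00507.

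Compared with HF diet hearts, 5 of the 36 genes other than Polr2a were past the threshold in combination hearts, Polr2h, Med28, Polr2j, Polr2i and Med11, all higher, beside 5.76% of all probe sets (2.84% higher and 2.92% lower). These were 3 of the 10 Pol II genes and 2 of the 26 Mediator genes. At an unadjusted p under 0.05 there were 12, beside 13.3% of all probe sets (6.4% higher and 6.94% lower), with 9 higher (those 5 with Polr2c, Polr2e, Polr2g and Med30) and 3 lower (Med12l, Cdk8 and Cdk19). Of the 37 differences 25 were positive, beside 47.1% of all, and the median was 0.184 over members and -0.0113 over all probe sets. The count over the 36 genes moved with single hearts: 12 were past the threshold without combination heart 4, 1 without combination heart 1 (Med28) and none without HF diet heart 3. The count over all 29170 probe sets moved as well, from 1679 to 2995, 576 and 1112 in the same order. With quantile normalization none of the 36 genes was past the threshold, beside 879 of all probe sets. With the hearts of a code stem averaged, Polr2h, Polr2j and Med11 were no longer past the threshold and Med10 was, and with the code stem as a random block Polr2i and Med11 were not.

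Compared with diabetes hearts, none of the 36 genes was past the threshold in combination hearts, beside 3.04% of all probe sets. At an unadjusted p under 0.05 there were 5, Polr2h, Polr2c and Polr2f higher and Med23 and Med15 lower, beside 9.41% of all probe sets (5.45% higher and 3.96% lower). Polr2c was 0.29 higher (SE 0.121, adjusted p = 0.528) and Med15 0.26 lower on the log2 scale (SE 0.121, adjusted p = 0.529), with limma. The median over the 37 members was 0.15, beside 0.00358 over all probe sets. Without combination heart 4 the count was 7, and without combination heart 1 it stayed at 0, beside 2125 and 277 of the 29170 probe sets.

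Neither exposure on its own brought a subunit past the threshold. In HF diet hearts no member was past the threshold, beside 0.943% of all probe sets, and the median over members was -0.0158. Cdk8 alone had an unadjusted p under 0.05, beside 2.67% of all probe sets, 0.18 higher than control (SE 0.0868, adjusted p = 0.9998 with limma), with HF diet hearts at 0.013, -0.023, 0.32, 0.086 and 0.063 inside a control range of -0.27 to 0.15 except for heart 3. In diabetes hearts no member was past the threshold, beside 0.305% of all probe sets, and none had an unadjusted p under 0.05, beside 1.61% of all. Med14 came closest, at -0.16 (SE 0.109, adjusted p = 1, limma), and the median over members was -0.0105. Between diabetes and HF diet hearts no member was past the threshold, beside 0.439% of all probe sets, and Med28 had the lowest p at 0.23 (SE 0.135, adjusted p = 1, limma). A difference that misses the threshold in groups of 5 to 7 hearts does not show that the groups are equal.

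The interaction term asks whether the combination departs from the sum of the diabetes and the HF diet differences. Polr2h was the only member past the threshold in it, at 0.41 on the log2 scale (SE 0.132, adjusted p = 0.672 with limma), beside 4.34% of all probe sets. Without combination heart 1 the term was 0.306, under the threshold, and so it was with array weights. Its diabetes and HF diet differences from control were -0.0625 (SE 0.0874) and -0.106 (SE 0.092), against 0.24 for the combination. Cdk19 and Med12l, both of the kinase module, had terms of -0.32 (SE 0.153, adjusted p = 0.672) and -0.29 (SE 0.129, adjusted p = 0.672), with limma, short of the fold threshold. In both genes the HF diet difference from control was positive, 0.16 (SE 0.106) and 0.15 (SE 0.0898), and that of the combination negative. Polr2h, Cdk19 and Med12l were the 3 members with an unadjusted p under 0.05, beside 6.5% of all probe sets. Polr2a had a term of -0.40 (SE 0.199). The median term over members was 0.181.

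The subunits varied together over the 23 hearts, with Polr2a opposite to most of Pol II. Correlations were not taken within single groups. In HF diet heart 4, Polr2a (-0.258) and the median of the other Pol II genes (-0.072) were both below 0. Over the 23 hearts Polr2a correlated with Polr2c at r = -0.852 (Spearman rho = -0.782), and at r = -0.747 without the 2 hearts farthest out in Polr2a, combination hearts 1 and 3. With group means removed r was -0.799. The genes most like Polr2a were Med23 (r = 0.854, rho = 0.821), Med13 (r = 0.847, rho = 0.846) and Med14 (r = 0.715, rho = 0.596). Those most opposed after Polr2c were Med28 (r = -0.825), Med20 (r = -0.816) and Polr2h (r = -0.794). Polr2b did not follow Polr2a (r = 0.046). Of the 36 other members, 19 (52.8%) had r below -0.5 with Polr2a and 8 (22.2%) above 0.5, while 18.2% and 12.3% of the 15310 probe sets with 1 symbol did. These values describe hearts that share arrays and their normalization, and no p is attached to them.

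**Figure D3:**
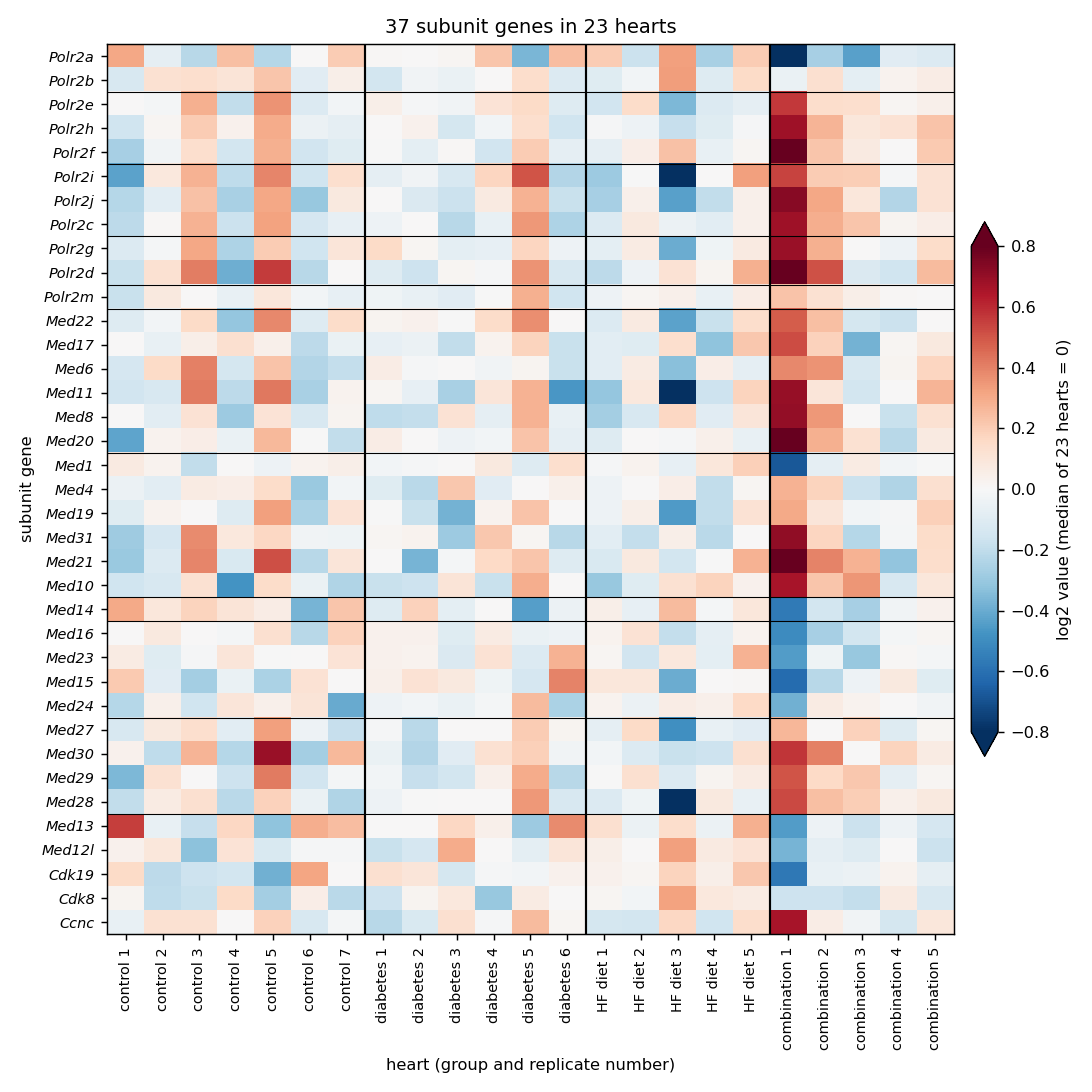
Log2 values of the 37 subunit genes (rows, grouped by structure) in the 23 hearts (columns, by group and replicate number), where blue is below and red above the median of the 23 hearts. Combination heart 1 has the strongest colours, with Polr2a at -0.82 and Med21 at 1.38. Control hearts 3 and 5 and diabetes heart 5 show the same split more weakly, and HF diet heart 3 has the deepest blue for Polr2i at -1.49.

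The pattern followed the main axis of variation of the arrays. The first principal component, computed from all probe sets except the members, held 28.7% of the variance, and 24 of the 37 members (64.9%) correlated with it above 0.5 and 9 (24.3%) below -0.5, beside 22.6% and 15.2% of the 15310 probe sets with 1 symbol. Polr2j (r = 0.939) and Polr2c (r = 0.93) were highest, and Polr2a (r = -0.773), Med13 (r = -0.768) and Med12l (r = -0.71) lowest. Combination hearts averaged 18.3 ± 23.2 (SD, n = 5) on it and controls -1.77 ± 21.1 (SD, n = 7), and the groups overlapped: hearts 1 and 2 of the combination group stood at 48.2 and 36, and control heart 5 and diabetes heart 5 at 33.6 and 32.3. Those last hearts carried the pattern without the combined exposure, with all 10 other Pol II genes above 0 and Polr2a at -0.23 and -0.365. So did control heart 3, which stood lower on the component at 18.2, with all 10 above 0 and Polr2a at -0.22. With the component as a covariate, 18 of the 37 differences from control were positive and 19 negative, and the median was -0.000382. No member was then past the threshold in any of the 3 combination comparisons. Few of the 29170 probe sets were: 357 against control, 237 against HF diet and 191 against diabetes hearts. With combination hearts 1 and 2 left out, 24 of the differences from control were positive with a median of 0.0187. Again no member was past the threshold, beside 234, 281 and 179 of all probe sets. What the component stands for was not tested.

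**Figure D4:**
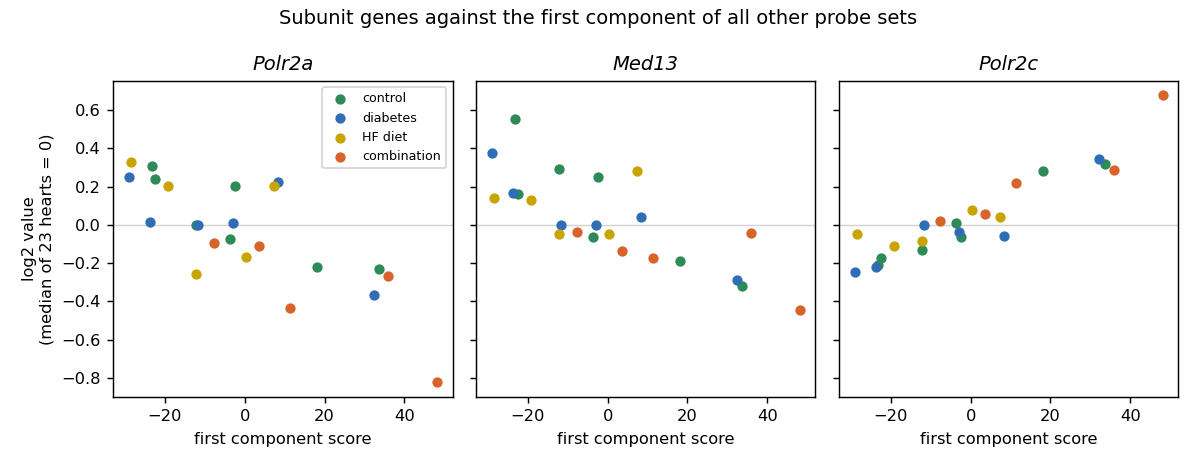
Log2 value of Polr2a, Med13 and Polr2c against the score of each heart on the first principal component of all other probe sets, with groups in colour. Polr2c climbs along the component (r = 0.93) and Polr2a and Med13 decline (r = -0.773 and -0.768) in hearts of all 4 groups, and the combination hearts run from -7.66 to 48.2 on it.

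Other parts of the transcription machinery were described from lists, by counts and medians. Of 14 genes for subunits that only Pol I or Pol III has, 12 had positive differences in combination against control hearts, with a median of 0.133, and 1 was past the threshold, Polr1c at 0.32 (SE 0.148, adjusted p = 0.498 with limma). Of 26 probe sets for general transcription factors, 20 were positive with a median of 0.0677 and 1 was past the threshold, Gtf2e2, a subunit of TFIIE, at 0.36 (SE 0.149, adjusted p = 0.495 with limma). The elongation factors of Pol II lay on the other side, with 20 of 30 probe sets negative, a median of -0.0682 and none past the threshold. Against HF diet hearts, beside 2.84% of all probe sets higher and 2.92% lower, 3 of the 30 elongation probe sets were lower past the threshold, Cdk12 (-0.37, SE 0.135), a kinase of the Pol II tail, and Aff4 (-0.36, SE 0.116) and Supt6h (-0.32, SE 0.131), with adjusted p = 0.368 in limma. In that comparison 2 of the 14 Pol I and Pol III genes were higher past the threshold, Polr1e (0.57, SE 0.197) and Polr1c (0.34, SE 0.16), and 2 of the 26 probe sets of general factors, Gtf2e2 (0.39, SE 0.161) and Gtf2h3 (0.37, SE 0.169), a subunit of TFIIH. Of 10 genes for phosphatases of that tail and assembly factors, 7 were negative with a median of -0.097 and none was past the threshold against control or HF diet hearts. The direction of a list was thus mixed within the machinery as it was within Pol II and Mediator.

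Marker genes of cell types were set beside these values. Cardiomyocyte markers had a mean of -0.0715 in combination and -0.00159 in control hearts, with 9 of 13 genes negative and none past the threshold, and fibroblast and endothelial markers had 7 of 8 and 6 of 7 negative with medians of -0.17 and -0.154. Erythroid markers had all 11 probe sets (of 10 genes, the 2 for Rhag holding the same values) positive with a median of 0.373 and 1 past the threshold, and their mean ran from -0.384 to 1.28 in combination and from -0.695 to 0.226 in control hearts. Macrophage markers had 6 of 10 genes positive, with means from -0.225 to 0.551 in combination and from -0.173 to 0.575 in control hearts. Lung and thymus markers stood at 3.97 in control heart 1 and at -0.0143 or lower in the other 6 controls, and all 9 were negative. Of all probe sets 3.31% were past the threshold against control (2.1% higher and 1.2% lower). Against HF diet hearts, 10 of 13 cardiomyocyte markers were negative and 3 positive, with a median of -0.0098. Past the threshold 2 of them were lower, Ryr2 (-0.45, SE 0.196) and Ttn (-0.40, SE 0.184). Of 7 endothelial markers 6 were negative, with Tie1 (-0.37, SE 0.128) alone past the threshold. Of 11 erythroid probe sets 10 were positive and 3 were higher past the threshold, those for Ahsp (1.22, SE 0.462) and Rhag (0.61, SE 0.282). Macrophage markers had 7 of 10 positive and 3 negative, with Lyz2 (0.90, SE 0.4) alone past the threshold. Of 8 fibroblast markers 5 were lower at an unadjusted p under 0.05 in limma, beside 6.94% of all probe sets lower. The other 3 were positive and none of the 8 was past the threshold. Over all probe sets 2.84% were higher and 2.92% lower past it. With the erythroid mean as a covariate none of the 36 genes other than Polr2a was past the threshold against control and 1 was against HF diet hearts (Med28). Over all 29170 probe sets there were 350 and 700. Since values are centred, it cannot be read which of these markers are near background, and the part of the other cell types in the differences was not tested.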

How the data were processed

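The authors' GeneChip intensities were normalized in GeneSpring GX by an algorithm that the sources used here do not name. They deposited log2 values of 29170 probe sets in 23 hearts, centred on the median of each probe set. These were taken as deposited, with no filter on dim probe sets, since centring removes the level. The columns all matched a labelled heart. Members were found by the symbols of the array annotation, and all 36 annotated genes had the same symbol in the RefSeq gene table. In limma, all 23 hearts were fitted with 1 mean for each group (lmFit and eBayes, prior SD 0.163 with 3.56 prior and 19 residual degrees of freedom), and 6 pairwise differences and the interaction were taken from that fit, with Benjamini-Hochberg adjustment over 29170 probe sets. The script was tested on simulated data. Depth does not apply to arrays, and 5 to 7 arrays per group limit the precision. The genes named are those past the threshold in any comparison, Polr2a and Polr2h, the kinase module, the lowest p of each comparison and the extremes of each structural group. Others were named after their values were seen. Members and gene lists were chosen with earlier results of these data known. Alternatives were the t-test of the methods (unequal variances), the 2 compared groups alone, quantile normalization, probe sets with 1 symbol alone, the replicate number as a block, hearts of a code stem averaged or as a random block, array weights, an erythroid covariate and each heart left out. The covariate of the first component and the fit without combination hearts 1 and 2 were added after seeing the data. Tools were R 4.3.3, limma 3.58.1, Python 3.11.15, pandas 2.3.3, numpy 2.4.6 and matplotlib 3.10.9.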

Additional observations from a re-analysis of the deposited data

Results flagged for a closer look

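Among 26 named members, 104 groups of hearts were searched for a heart whose gap to the nearest other heart, as a share of the range of the group, exceeded Dixon's critical value, and 13 were found. Chance flags about 1 in 20 groups where these are independent, which they are not here, since all genes share the hearts and vary together, so the number found is not read against it. In combination heart 1, Polr2f (0.794, nearest heart 0.22), Polr2e (0.564, nearest 0.139) and Ccnc (0.659, nearest 0.088) were far above the other 4 combination hearts. In the same heart Med1 (-0.677, nearest -0.071), Cdk19 (-0.574, nearest -0.073) and Med24 (-0.385, nearest -0.029) were far below them. In diabetes heart 5, Polr2d (0.36, nearest 0.017), Med28 (0.35, nearest 0.005) and Polr2m (0.285, nearest -0.001) stood above the other diabetes hearts. Med28 was at -0.854 in HF diet heart 3, where the nearest heart was at -0.109. Med14 was at -0.372 in control heart 6 (nearest 0.057) and Med1 at -0.196 in control heart 3 (nearest -0.04). Cdk8 was at 0.073 in combination heart 4, while the other 4 combination hearts lay between -0.191 and -0.129. The causes were not tested.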

How the results depend on the processing

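The number of subunit genes past the threshold depended on the processing, and the causes were not tested. Except where Polr2a is said to be added, the counts in this paragraph and the next are over the 36 other genes. Polr2a was chosen on the combination and control hearts. Numbers in brackets in this paragraph are counts over all probe sets. For combination against control it was 1 (965), Med10. It was 0 with the t-test of the methods (361), the erythroid covariate (350), quantile normalization (454) and array weights (380). The first component as a covariate (357) and leaving out combination hearts 1 and 2 (234) also gave 0. With the replicate number as a block it stayed at 1 (632). For combination against HF diet it was 5 (1679), and 1 with the t-test (812) and 1 with the erythroid covariate (700). It was 0 with quantile normalization (879), array weights (627), the first component (237) and without combination hearts 1 and 2 (281). For combination against diabetes it was 0 (886). It stayed at 0 with the t-test (288), quantile normalization (413), array weights (511), the first component (191) and without combination hearts 1 and 2 (179). For the interaction it was 1 (1265). It was 2 among the 15310 probe sets with 1 symbol alone (594) and 2 with the erythroid covariate (1650). Array weights (959), the first component (375) and leaving out combination hearts 1 and 2 (405) gave 0.

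Leaving out each heart in turn gave 0 to 8 genes for combination against control, 1 to 13 against HF diet and 0 to 8 against diabetes. The same fits gave 0 to 7 for the interaction and 0 to 1 for HF diet against control. They gave 0 to 1 for diabetes against HF diet and 0 for diabetes against control. With Polr2a added, as a description, the ranges were 0 to 8 against control, 1 to 13 against HF diet and 0 to 8 against diabetes. For the interaction the range with Polr2a added was 0 to 8. The counts over all probe sets moved as well. Against control there were 348 without combination heart 1 and 2103 without combination heart 4. Against HF diet there were 1112 without HF diet heart 3 and 2995 without combination heart 4. Against diabetes there were 277 without combination heart 1 and 2125 without combination heart 4. Without HF diet heart 5, HF diet against control had 349 and diabetes against HF diet 209. In the interaction, 623 of all probe sets were past the threshold without combination heart 1 and 2600 without diabetes heart 5. Against control the lowest count came without combination heart 1 or control heart 4, and against HF diet without HF diet heart 3. The highest counts of the combination comparisons came without combination heart 4. The highest of the interaction came without diabetes heart 5 and also without combination heart 4. The median over members against control ran from 0.0409 to 0.162 and turned to -0.000382 with the first component as a covariate.

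Against control, Cdk8 changed sign with quantile normalization (0.00507), array weights (0.00442), the erythroid covariate (0.0327), the first component (0.0551) and without combination hearts 1 and 2 (0.00995), and Med22 in the same settings (-0.0178, -0.00525, -0.0533, -0.131 and -0.126). With the first component Cdk19 (0.00731), Ccnc (-0.00671), Polr2e (-0.00869), Polr2i (-0.0885), Med24 (-0.00781) and Med27 (-0.0548) also did. Without combination hearts 1 and 2 Cdk19 (0.0315), Ccnc (-0.0612), Polr2d (-0.0486) and Med1 (0.021) did. Over the fits with 1 heart left out, Cdk19 (-0.136 to 0.0244), Ccnc (-0.0386 to 0.162), Med22 (-0.0401 to 0.124) and Med1 (-0.185 to 0.000214) changed sign without combination heart 1, Cdk8 (-0.0707 to 0.0175) without control heart 4 or 6, and Med24 (-0.045 to 0.09) without any of 6 hearts. With the replicate number as a block Med24 was at -0.0556. The replicate numbers are not stated to pair hearts: over 31 pairs of hearts with the same number the correlation of deviations had a median of -0.0828 (-0.422 to 0.559), and 7 of 23 hearts correlated best with their own number. With code stems averaged or as a random block (consensus correlation 0.157), 3 of the 36 genes were past the threshold against HF diet, instead of 5. Averaging lost Polr2h (0.294), Polr2j (0.323) and Med11 (0.305) and gained Med10, and the random block lost Polr2i (0.483) and Med11 (0.387). In the other comparisons the count over the 36 genes stayed the same in both settings. A filter on dim probe sets was not run because levels cannot be read, and signal over background is unknown.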
